A study of Mus musculus with 37 samples.

Results

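The cortex of Dble::R6/2 mice was compared with the cortex of WT mice at 9 wk of age, using all 10 Dble::R6/2 arrays and all 9 WT arrays out of 37 arrays in the series. Samples were chosen by the genotype in their titles, 1 array per mouse. All 45037 probe sets of the Affymetrix mouse array were compared, and each gene was represented by its brightest probe set (by mean level on the 37 arrays), which gave 18193 genes. The remaining 18 arrays, 9 of R6/2 and 9 of Hdac4HET cortex, entered the fit and are cited only where they show how a Dble::R6/2 value is made up.

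Dble::R6/2 mice carry the R6/2 transgene, which encodes an N-terminal fragment of human huntingtin with an expanded polyglutamine tract, and have in addition 1 null allele of Hdac4. R6/2 mice carry the transgene alone, Hdac4HET mice the null allele alone, and WT mice neither. All were bred on a mixed CBA and C57BL/6 background, so the mice are not genetically identical, and the null allele was made in cells of another strain, so a stretch of that strain's DNA travels with it in Dble::R6/2 and Hdac4HET mice only. The transgene adds a fragment of huntingtin in cells that still have both normal copies of the mouse gene. By label, 4 WT mice were female and 5 male, and 5 Dble::R6/2 mice were female and 5 male.

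Huntington's disease is caused by a CAG repeat expansion in huntingtin, whose N-terminal fragments aggregate in neurons. Neurons of the striatum and cortex lose transcripts of signalling proteins, neuropeptides and activity-dependent genes in mouse models of the disease. Hdac4 is a class IIa histone deacetylase that can shuttle between cytoplasm and nucleus and represses MEF2 transcription factors in muscle.

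The deposited values were log2 expression levels, and array medians lay between 6.16 and 6.21. Correlations between arrays were 0.993 to 0.996 within WT and 0.994 to 0.998 within Dble::R6/2, and no pair of arrays held the same values. On 6 of the 37 arrays the sex-linked genes did not match the labelled sex. WT replicate 9 and Dble::R6/2 replicates 1 and 9 carried the signal of the other sex, as did Hdac4HET replicate 1. Hdac4HET replicates 5 and 9 carried both signals, with Xist at 11.21 and 11.67 and a mean over Y-linked genes of 6.56 and 5.89. Olfactory bulb markers were called raised where their mean lay above that of the highest WT array (6.84), so no WT array could be counted. This held for 7 arrays, of which 1 was a Dble::R6/2 array (replicate 10) and 6 were Hdac4HET. The markers of cortical neurons were bright in both groups, with mean levels on the WT arrays of 13.88 for Snap25, 12.52 for Rbfox3 and 10.22 for Slc17a7. Replicates are separate mice, and the number of arrays limits the precision.

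Calls required a change above 1.3-fold together with a limma p under 0.05 after Benjamini-Hochberg adjustment across all probe sets. Of the 45037 probe sets, 3009 were called in Dble::R6/2 against WT (6.68%), 1167 of them higher and 1842 lower. Without the fold threshold 17930 probe sets passed, 10173 higher and 7757 lower. Over genes, 599 were higher (3.29% of the 18193) and 544 were lower (2.99%). The change exceeded 2-fold in 12 of the higher and 35 of the lower genes. The lowest Dble::R6/2 array lay above the highest WT array in 1891 genes (10.4%), and the reverse was found in 584 genes (3.21%). Among the called genes the groups were apart in this way for 421 higher and 328 lower ones. The median change over all genes was 0.02 on the log2 scale. The shares over all genes given here are the background for the counts of list members that follow. Lists and their members were chosen with earlier results of these data known, so a count above these shares is a description and not a test.

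**Figure D1:**
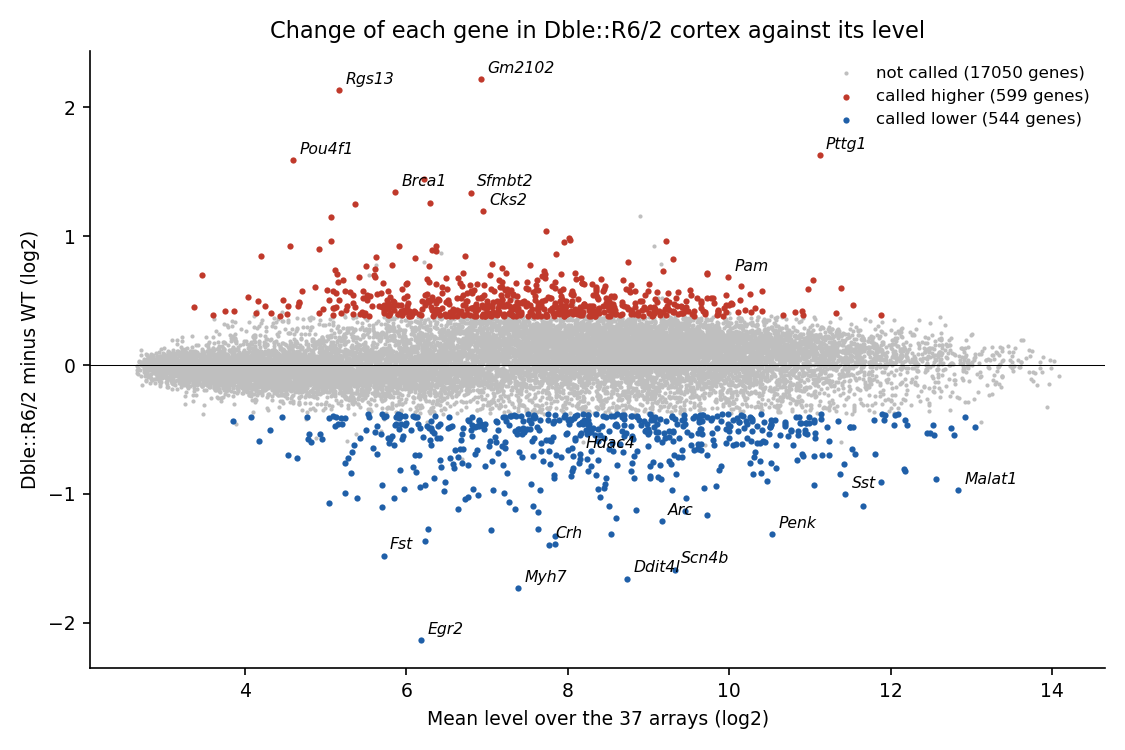
Each point is 1 of 18193 genes, with its mean level over the 37 arrays (log2) on the x axis and its change, Dble::R6/2 minus WT (log2), on the y axis. The 599 called higher and 544 called lower genes are coloured, and the largest values are those of Gm2102 at 2.22 and Egr2 at -2.13.

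Transcripts enriched in the striatum were among those lowered most. Of 18 measured genes of striatum-enriched signalling 12 were lower and none was higher, and their median change was -0.58. Scn4b, the sodium channel beta 4 subunit, measured between 9.40 and 10.49 on the WT arrays (median 10.15) and between 8.02 and 9.16 on the Dble::R6/2 arrays (median 8.47). Every Dble::R6/2 array lay below every WT array, and the fall was 3.01-fold (log2 -1.59 ± 0.108 SE, adjusted p = 1.02e-14). Penk, the precursor of enkephalins, gave WT levels from 10.56 to 11.50 (median 11.25) against 9.33 to 10.31 (median 9.78). Its groups did not overlap either, with a 2.48-fold fall (adjusted p = 2.23e-10). Pdyn, which encodes the dynorphin precursor, changed by -0.97, and Ppp1r1b, the dopamine-regulated phosphatase inhibitor DARPP-32, by -1.13, both with the groups apart. Rgs9, Arpp21, Rasd2, Gnal, Pde10a, Rasgrp2, Drd1 and Drd2, which act in dopamine, G protein and cyclic nucleotide signalling, were lower by 0.56 to 0.81 on the log2 scale.

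A piece of striatum in a dissected cortex would also carry such transcripts, so the level of 12 measured striatum dissection markers was read on each array. Of these markers 6 were lower and 1, Ebf1, was higher, with a median change of -0.44, and 3 of those lower (Drd1, Drd2 and Rgs9) belong to both lists. Their mean level ranged from 6.86 to 7.84 over the WT arrays and from 6.88 to 7.52 over the Dble::R6/2 arrays, so here the groups overlapped. Gpr6, a receptor of striatal neurons, spanned 7.04 to 8.51 in WT (median 7.96) and 6.51 to 7.64 in Dble::R6/2 (median 6.95), a fall of 1.90-fold (log2 -0.92, adjusted p = 3.09e-05). WT replicate 1 was the lowest WT array for Gpr6, Scn4b and Penk alike. The share of carried-over striatum in the fall of these genes was not tested. In bulk tissue, fewer cells of a type and less RNA per cell cannot be told apart, here and in all lists that follow.

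Neuropeptides of cortical interneurons were lower as well. Of 21 measured interneuron peptides and markers 10 were lower and none was higher, with a median change of -0.38, and in 8 of these 10 (all but Cort and Nos1) the groups did not overlap. Crh, corticotropin-releasing hormone, lay between 8.33 and 8.72 in WT (median 8.48) and between 6.87 and 7.43 in Dble::R6/2 (median 7.07). The gap between the groups was wider than either group, and the fall was 2.63-fold (log2 -1.39 ± 0.0953 SE, adjusted p = 1.09e-14). Vip (vasoactive intestinal peptide) changed by -1.16, Crhbp, which binds Crh, by -1.10, Npy by -0.85 and Tac2 by -0.71.

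Sst (somatostatin) is one of the brightest of these transcripts, and its WT levels of 11.86 to 12.10 fell to 10.81 to 11.15, a 2.00-fold change (adjusted p = 1.47e-17). Reln, Cort, Nos1 and Cck were lower by 0.38 to 0.60 on the log2 scale. Gad1, the enzyme that makes GABA and is shared by cortical interneurons, did not pass the fold threshold at -0.36 (adjusted p = 5.4e-07), and Gad2 and Pvalb measured -0.23 and -0.25. Among general neuronal transcripts, Snap25 was at -0.15, Rbfox3 at -0.17, Syt1 at -0.09 and Map2 at -0.07, none of them called.

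**Figure D2:**
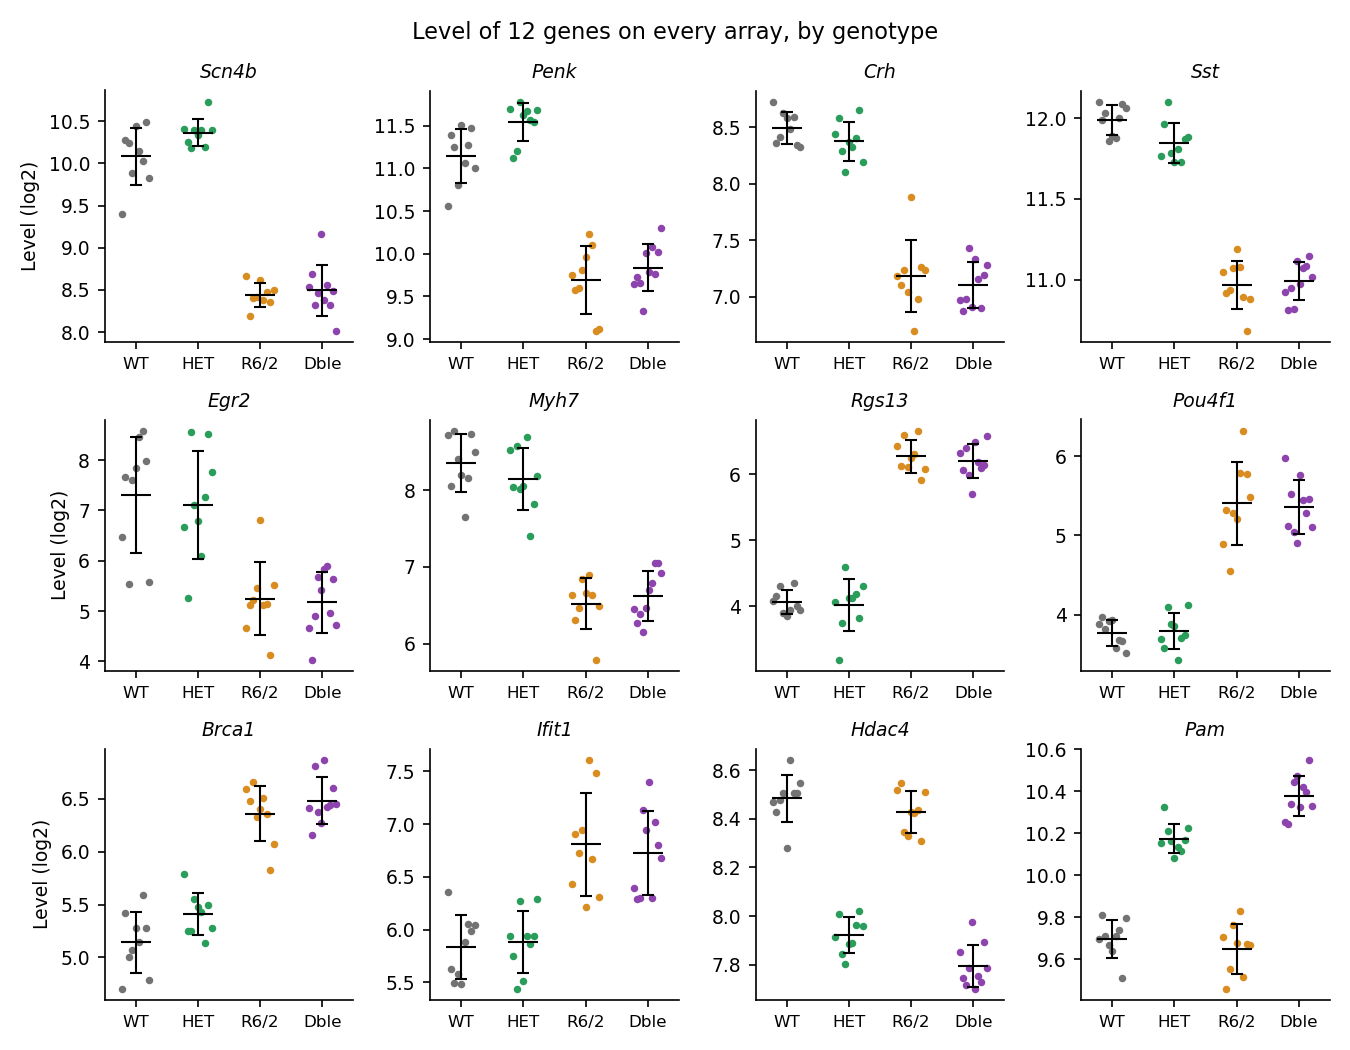
Level (log2) of 12 genes on each of the 37 arrays by genotype (HET, Hdac4HET; Dble, Dble::R6/2), with the mean and SD as black bars and a y axis of its own for each gene. The 10 Dble::R6/2 arrays lie apart from the 9 WT arrays for Scn4b, Penk, Crh, Sst, Myh7, Rgs13, Pou4f1, Brca1, Hdac4 and Pam, and the 2 groups overlap for Egr2 and Ifit1.

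Genes induced by neuronal activity were lower, with a wide spread between WT mice. Of 20 activity-induced transcription factors 9 were lower and none higher, with a median change of -0.38. None of the 9 had groups that were apart. Egr2, a zinc finger factor, showed the largest fall of all genes, 4.38-fold (log2 -2.13 ± 0.390 SE, adjusted p = 2.44e-05). Its level was 5.54 to 8.58 in WT (median 7.67) and 4.03 to 5.89 in Dble::R6/2 (median 5.19), and 2 WT arrays, replicates 3 and 9, fell within the Dble::R6/2 range. Npas4 changed by -1.28, Junb by -0.82, Klf10 by -0.73 and Egr3 by -0.69. Fos measured -0.62 (adjusted p = 0.0812) and was not called, and its WT SD was 0.89. Fosb measured 0.30 (adjusted p = 0.0731).

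Of 28 activity-induced effectors, which act on synapses and signalling downstream, 16 were lower and none was higher, with a median change of -0.45. The groups did not overlap for Fst, Nptx2, Nrn1, Inhba, Rgs4 and Dusp14, and overlapped for the other called effectors. Arc, which acts in AMPA receptor endocytosis, was 7.62 to 10.45 in WT (median 10.29) and 7.76 to 9.08 in Dble::R6/2 (median 8.70). WT replicate 3 was below every Dble::R6/2 array and WT replicate 9 was within their range, and the mean fall was 2.32-fold (adjusted p = 0.00172). Fst, the activin-binding protein follistatin, had no such overlap, with 6.06 to 6.88 in WT and 4.65 to 5.33 in Dble::R6/2, and fell 2.79-fold (adjusted p = 1.67e-11). Ptgs2, Nptx2, Btg2, Dusp1, Nrn1 and Inhba changed by -0.70 to -1.06. Bdnf, the neurotrophin that cortex supplies to striatum, measured 8.98 to 9.74 in WT (median 9.37) and 8.66 to 8.98 in Dble::R6/2 (median 8.82), a fall of 1.48-fold (log2 -0.57 ± 0.0869 SE, adjusted p = 1.32e-06). Only the highest Dble::R6/2 array reached the lowest WT value. The study states that its arrays held no Bdnf probe sets. It measured Bdnf transcripts in cortex by qPCR at a later age, and reported them nearly back at the WT level in Dble::R6/2. Assay and age differ from those here.

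Signalling downstream of receptors was lower in 10 of 26 measured genes for G proteins, cAMP and calcium, with none higher and a median of -0.30. All 26 had a change below 0. Camkk2, the kinase that activates calmodulin-dependent kinases, had levels of 11.41 to 11.66 in WT (median 11.55) and 10.50 to 10.77 in Dble::R6/2 (median 10.56). The groups stood far apart, with a fall of 1.91-fold (log2 -0.93 ± 0.0440 SE, adjusted p = 1.26e-18), and the other 3 Camkk2 probe sets were lower too. Wfs1, a protein of the endoplasmic reticulum, changed by -0.94, and Itpka, which phosphorylates inositol trisphosphate, by -0.84.

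Ion channels and receptors were lower in part. Among 33 potassium channel genes 6 were lower, none was higher and the list had a median of -0.17. Kcnip2, Kcnma1, Kcnh3 and Kcnj9 changed by -0.61 to -0.97. Kcnj9 (-0.97) overlapped between the groups and fell into separate levels within each. WT replicates 1, 6, 8 and 9 were at 10.13 to 10.34 and the other WT arrays at 9.08 to 9.40. Dble::R6/2 replicates 5, 8 and 9 were at 9.00 to 9.80 and the rest at 8.16 to 8.51. The cause of this split was not tested. Of 24 sodium and calcium channel genes 3 were lower (Scn4b, Cacna2d3 and Cacng3) and Scn3a was higher by 0.44, with a median of -0.08. The call of Scn3a ended with the mean over all probe sets of the gene (0.21). Scn9a, a sodium channel better known from sensory neurons, was in no list and rose 2.22-fold on its brightest probe set, and its 4 dimmer probe sets measured 0.15, 0.62, -0.04 and 0.04. Of 21 glutamate receptor genes 4 were lower (Grm3, Grm2, Grm4 and Grik1), of 10 GABA receptor genes 1 was lower, and of 24 aminergic, cholinergic, opioid and cannabinoid receptor genes 4 were lower. The Grik1 call ended with the mean over its probe sets (-0.31). For Kcnma1 and Grm3, WT replicate 8 was the lowest WT array and Dble::R6/2 replicates 9 and 10 were the lowest of their group. The part of the probe set pattern described at the end in these falls was not tested. Gabrd, the GABA-A delta subunit of extrasynaptic receptors, measured 9.27 to 9.59 in WT and 8.35 to 8.75 in Dble::R6/2, a change of -0.86 (adjusted p = 3.83e-15) with the groups apart. Its 1 other probe set measured -0.16. Hrh3, the histamine H3 receptor, changed by -0.75 and Oprk1, the kappa opioid receptor, by -0.57.

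At the synapse, 3 of 18 postsynaptic density scaffolds were lower (Dlgap2 by 0.96 on the log2 scale, Synpo and Dlg4) and 6 of 30 genes of presynaptic release, and none of either list was higher. The medians were -0.20 and -0.16. The Synpo call ended with the mean over its probe sets (-0.19). Cplx2, a complexin that binds the SNARE complex, was very bright in WT at 12.72 to 13.17 (median 13.09) and measured 11.76 to 12.52 in Dble::R6/2 (median 12.19). Its change was -0.88 (adjusted p = 4.23e-12) with no overlap. For both Cplx2 and Dlgap2, WT replicate 8 was the lowest WT array. Dble::R6/2 replicates 4, 8, 9 and 10 were the lowest of their group, at 11.76 to 12.02 for Cplx2 and 7.43 to 7.73 for Dlgap2. The same arrays were lowest for the mean of the less bright probe sets described at the end. The part of that pattern in these falls was not tested. Of 23 layer markers of excitatory neurons 9 were lower and none higher, with a median of -0.29. Lamp5, found in upper layers, changed by -1.10, Otof by -0.91, the subplate and deep-layer genes Cplx3 and Ccn2 by -0.86 and -0.74, and Fezf2 of deep layers by -0.60.

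Genes better known from muscle made up several of the largest falls. Of 25 measured muscle contraction genes 7 were lower and none was higher, while the median was only -0.13, so the list held few large changes among many small ones. Myh7, the slow cardiac myosin heavy chain, was 7.65 to 8.77 in WT (median 8.41) and 6.15 to 7.05 in Dble::R6/2 (median 6.58). The groups were apart and the fall was 3.32-fold (log2 -1.73 ± 0.154 SE, adjusted p = 1.20e-11). Ryr1, the skeletal muscle calcium release channel, changed by -1.36, Tnnc1 (troponin C) by -1.32 and Myl4 (an atrial myosin light chain) by -1.31, all with no overlap. Tnnt1, Acta1 and Mybpc3 were lower by 0.39 to 0.65 on the log2 scale.

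Ddit4l, an inhibitor of mTOR signalling, was the only 1 of 28 measured genes of the endoplasmic reticulum stress list that was called. Wfs1 of the endoplasmic reticulum, also lower (-0.94), was counted above with the genes for G proteins, cAMP and calcium and not in this list. Ddit4l measured 9.26 to 9.76 in WT (median 9.57) and 7.41 to 8.16 in Dble::R6/2 (median 7.93), with Dble::R6/2 replicate 10 lowest, and fell 3.15-fold (adjusted p = 8.84e-18). Both of its other probe sets were lower as well. Of 21 cholesterol synthesis genes 8 were lower and none higher, with a median of -0.25, among them Stard4 (-0.67), Idi1 (-0.56), Insig1 (-0.52) and Fdft1 (-0.51). The Fdft1 call ended with the mean over its probe sets (-0.26). Of 21 circadian clock genes 5 were lower (Hlf, Bhlhe40, Ciart, Dbp and Nr1d1) and 1, Cry1, was higher by 0.60.

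The 2 largest rises were those of the predicted gene Gm2102 and of Rgs13, a regulator of G protein signalling known from B cells and mast cells. Gm2102 measured 5.37 to 6.03 in WT (median 5.75) and 7.82 to 8.16 in Dble::R6/2 (median 7.96), a 4.66-fold rise (log2 2.22 ± 0.0792 SE, adjusted p = 1.61e-22). Its 1 other, dimmer probe set measured -0.15, so the rise was seen with 1 probe set of the gene. Rgs13 rose from 3.85 to 4.36 in WT to 5.71 to 6.57 in Dble::R6/2, 4.38-fold (adjusted p = 1.12e-16). Both genes had wide gaps between the groups.

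Transcription factors of development rose in few members. Of 25 measured developmental transcription factors 3 were higher and none lower, and the list's median was 0.01. Pou4f1, a POU factor of sensory neurons, was 3.51 to 3.97 in WT (median 3.82) and 4.90 to 5.98 in Dble::R6/2 (median 5.36). The groups were far apart, with a rise of 3.01-fold (log2 1.59 ± 0.147 SE, adjusted p = 3.06e-11). Onecut2 and Twist1 rose by 1.44 and 1.25 with no overlap. Sox3, a factor of neural progenitors, rose by 0.92, although its 1 other probe set measured -0.09. Of 31 Hox genes 1, Hoxb5, was called higher (0.70), which is near the share of 3.29% over all genes. The WT median of Hoxb5, 3.10, lay under the fifth percentile of all probe set levels (3.22). The median over Hox genes was -0.05.

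Chromatin genes rose in part. Of 29 polycomb group genes 4 were higher (Sfmbt2, Cbx8, Bmi1 and Phf1), none was lower and 24 had a change above 0, with a median of 0.15. The Cbx8 call ended with the mean over its probe sets (0.28), and that of Phf1 with quantile normalization (0.36). Sfmbt2, a polycomb protein with MBT repeats, measured 5.82 to 6.26 in WT (median 6.13) and 7.15 to 7.55 in Dble::R6/2 (median 7.43), a 2.53-fold rise (adjusted p = 3.63e-16) with the groups apart. Sin3b, a scaffold of histone deacetylase complexes, rose by 0.71 on its brightest probe set, with Sin3b levels of 9.22 to 9.50 in WT and 9.92 to 10.27 in Dble::R6/2. Among 16 genes of MEF2 factors and the REST complex it was the only 1 higher, and Mef2c was the only 1 lower (-0.54). The Mef2c call ended with the mean over its probe sets (-0.33). WT replicate 8 was the lowest WT array for Mef2c, and Dble::R6/2 replicates 9 and 10 were the lowest of their group, at 11.75 and 11.92. No gene of this list was called lower in R6/2 against WT. The part of the probe set pattern described at the end in the Mef2c fall was not tested. Nfya, a subunit of the CCAAT-binding factor NF-Y, rose by 0.97 and Atad2b, a bromodomain protein, by 0.96.

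Brca1, Cks2 and Cks1b were among the 20 largest rises. Brca1, which acts in repair by homologous recombination, rose 2.54-fold, from 4.70 to 5.59 in WT (median 5.14) to 6.16 to 6.87 in Dble::R6/2 (median 6.43, adjusted p = 6.3e-13). Cks2 and Cks1b, small subunits that bind cyclin-dependent kinases, rose by 1.19 and 0.99, and all 3 genes had groups that were apart. Within the list of 23 genes for DNA damage and the p53 response only Brca1 and Pmaip1 (0.70) were higher, Cdkn1a, the cell cycle inhibitor p21, was lower (-0.73), and the median was 0.07.

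Pttg1, the anaphase inhibitor securin, ranked among the 3 largest rises, but its values fell into separate levels. On the WT arrays it measured 7.22 to 11.98 (median 11.08), and WT replicates 2, 4 and 5 were below 8 while the other 6 were at or above 11. All 10 Dble::R6/2 arrays were between 11.21 and 12.19, so the rise of 1.63 (SE 0.549, adjusted p = 0.0161) rested on 3 WT mice. Leaving out any 1 of these 3 ended the call, with the change at 1.28 without WT replicate 4 and 1.29 without WT replicate 5. With all arrays, Pttg1 was not called by the t-test of the study's methods either (adjusted p = 0.0633). Its 2 other probe sets measured 1.80 and 0.83. H2-D1, an MHC class I chain, was likewise split in WT, at 8.30 to 10.10 with 3 arrays (replicates 1, 6 and 7) at 9.05 or lower, and all Dble::R6/2 arrays were at 9.77 or above (change 0.71, adjusted p = 0.0315). The H2-D1 call was lost without any 1 of WT replicates 1, 6 and 7 or Dble::R6/2 replicates 4 and 6, at changes of 0.55 to 0.66, and with the replicate block (0.72) or the mean over probe sets (0.37). The part that segregating CBA and C57BL/6 alleles have in these changes was not tested.

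Part of the interferon-stimulated genes rose. Of 23 measured 8 were higher and none was lower, 22 had a change above 0, and the median was 0.29. Ifit1, an antiviral RNA-binding protein, was 5.49 to 6.35 in WT (median 5.88) and 6.29 to 7.40 in Dble::R6/2 (median 6.74), a 1.86-fold rise (adjusted p = 2.49e-05) with a small overlap. Oasl2, Usp18 and Ifi35 rose by 0.78, 0.77 and 0.60, and in 3 of the 8 the groups were apart. The call of Ifi35 ended at 0.31 when probe sets that may match several transcripts (IDs ending in _x_at or _s_at) were left out. Of 16 antigen presentation genes 2, H2-D1 (0.71) and H2-Aa (0.52), were higher. The H2-Aa call was lost without any 1 of WT replicates 1, 4, 5, 6 and 8 or Dble::R6/2 replicates 4, 6 and 10, at 0.38 to 0.52, and under 6 other settings, at 0.24 to 0.56. Microglia markers showed no call in 18 genes, and the values of Cx3cr1 and Itgam were -0.35 and -0.36. Cx3cr1 was called lower without WT replicate 8 or Dble::R6/2 replicate 1 (both -0.38) and with quantile normalization (-0.39), and Itgam without WT replicate 3 or Dble::R6/2 replicate 4, 5 or 9 (-0.38 to -0.40).

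No proteasome or respiratory chain gene was called, although nearly all lay above WT. All 31 proteasome subunits had a change above 0, with a median of 0.16 and a highest value of 0.26, so none passed the fold threshold. Psmd1, a subunit of the 19S particle, was 11.12 to 11.28 in WT (median 11.23) and 11.42 to 11.55 in Dble::R6/2 (median 11.47), with no overlap and an adjusted p of 1.11e-10. Of 35 respiratory chain genes 34 had a change above 0, with a median of 0.11, and Sdha of complex II was highest at 0.28. Of 30 chaperones 25 had a change above 0 with a median of 0.17. Hspb6 (0.50) and Ahsa1 (0.41) were called higher, and Hspa1b (-0.39) lower, beside 3.29% and 2.99% of all genes. The Hspa1b call was lost without any 1 of WT replicates 1 and 6 or Dble::R6/2 replicates 1 and 3, at -0.36 to -0.37, and with the mean over probe sets both Hspa1b (-0.37) and Ahsa1 (0.23) lost theirs.

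Markers of other cell types showed few calls. Of 19 astrocyte markers 1, Slc1a2, the main glutamate transporter of astrocytes, was lower (-0.54), beside 2.99% of all genes. Yet 18 had a change below 0, the median was -0.26, and 10 had Dble::R6/2 arrays all below WT, beside 3.21% of all genes. The mean level of the astrocyte list was 10.77 to 10.86 over the WT arrays and 10.50 to 10.64 over the Dble::R6/2 arrays. Of 16 oligodendrocyte markers 3 were lower (Tspan2, Ugt8a and Mal) with a median of -0.16, and of 9 markers of their precursors Bmp4 alone was higher (0.39). The Bmp4 call was lost without any 1 of WT replicates 1, 3 and 9 or Dble::R6/2 replicates 8, 9 and 10, at 0.36 to 0.37, and with the replicate block (0.36). None of the 18 endothelial and pericyte or 16 choroid plexus, meninges and blood markers was called, and 1 of 17 olfactory bulb markers, Synpr, was lower (-0.48). No marker was at 0, since the scale of the array has no zero, and the part of cell composition in the lists above was not tested.

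**Figure D3:**
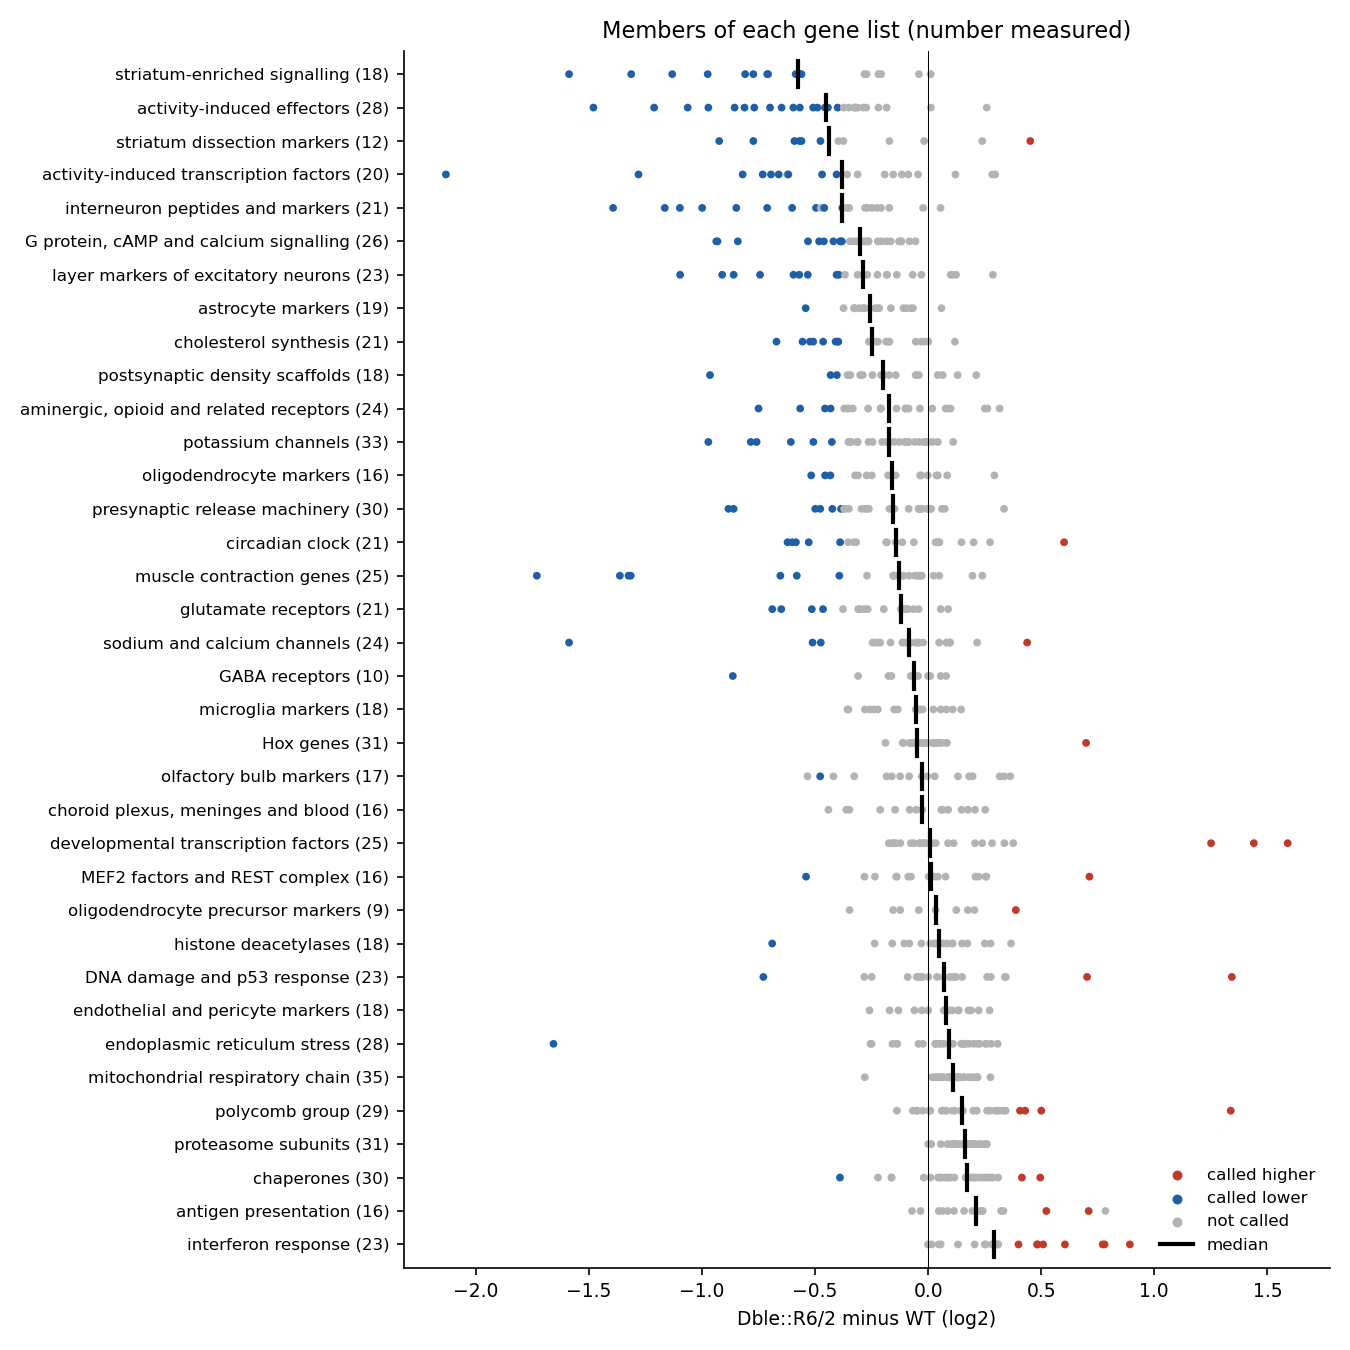
Each point is the change of 1 measured gene, Dble::R6/2 minus WT (log2, x axis), in 1 of 36 gene lists (y axis, with the number of genes measured), and black bars are list medians. The lists are ordered by their median, from striatum-enriched signalling at -0.58 to interferon response at 0.29.

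Promoters were read for the 20 largest rises and 20 largest falls, to show where 2 kinds of regulatory letters occur among the genes that changed most. Sequences are from RefSeq, build GRCm38.p6, and cover 250 bases before and 50 after a gene's start. Of the 40 genes 32 had a sequence. The motifs searched on both strands were the cAMP response element (TGACGTCA or TGACGCAA), the site of CREB factors, and the EGR site (GCGTGGGCG or GCGGGGGCG), the site of Egr1 and its relatives. Of 32851 promoters of this length 2.26% held the first and 3.47% the second motif. Of these 32 genes 3 held either, beside 9.70% of the 14452 tested genes with a sequence, and all 3 are shown. They are Gpr153 (log2 change -1.27), an orphan receptor, Cartpt (-1.14), the precursor of the CART neuropeptide, and Atad2b (0.96). Capitals mark the motif, which is an EGR site in Gpr153 and a cAMP response element in the other two.
Gpr153, chr4:152273862-152274161, plus strand: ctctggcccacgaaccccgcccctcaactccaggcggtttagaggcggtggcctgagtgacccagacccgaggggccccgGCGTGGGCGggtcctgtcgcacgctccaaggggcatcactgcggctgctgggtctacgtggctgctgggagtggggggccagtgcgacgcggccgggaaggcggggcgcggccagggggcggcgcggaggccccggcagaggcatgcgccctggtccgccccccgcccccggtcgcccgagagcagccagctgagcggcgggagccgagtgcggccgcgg
Cartpt, chr13:99900634-99900933, minus strand: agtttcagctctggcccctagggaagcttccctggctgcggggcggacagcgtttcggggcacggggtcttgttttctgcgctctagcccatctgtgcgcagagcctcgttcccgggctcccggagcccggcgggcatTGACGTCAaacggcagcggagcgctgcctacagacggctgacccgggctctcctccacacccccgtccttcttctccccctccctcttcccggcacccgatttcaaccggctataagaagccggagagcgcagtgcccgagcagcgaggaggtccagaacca
Atad2b, chr12:4917103-4917402, plus strand: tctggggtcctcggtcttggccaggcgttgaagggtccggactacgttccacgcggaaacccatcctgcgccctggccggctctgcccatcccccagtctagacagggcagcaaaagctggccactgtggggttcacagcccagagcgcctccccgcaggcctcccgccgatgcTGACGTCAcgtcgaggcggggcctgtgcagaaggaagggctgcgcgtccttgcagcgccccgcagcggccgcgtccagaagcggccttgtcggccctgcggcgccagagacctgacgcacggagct

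Counted from the start, with negative positions before it, the motif of Cartpt begins at -112, that of Atad2b at -76 and that of Gpr153 at -170, so a cAMP response element stood in a promoter of a gene that fell and in one of a gene that rose. Cartpt measured 7.80 to 8.76 in WT (median 8.14) and 6.53 to 7.83 in Dble::R6/2 (median 7.05). Only the highest Dble::R6/2 array overlapped with WT, and the fall was 2.20-fold (adjusted p = 1.35e-07). Gpr153 fell 2.42-fold and Atad2b rose 1.95-fold, each with the groups apart. Over all called genes with a sequence, an EGR site was found for 9.35% of 417 lower and 6.08% of 477 higher genes, beside 6.30% of 14452 genes tested, and a cAMP response element for 3.12%, 4.40% and 3.69%. These shares describe letters in a window and are not a count of bound sites.

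Hdac4 itself was lower in all Dble::R6/2 mice. It measured 8.28 to 8.64 in WT (median 8.50) and 7.70 to 7.98 in Dble::R6/2 (median 7.77), with no overlap, a fall of 1.61-fold (log2 -0.69 ± 0.0410 SE, adjusted p = 2.52e-16). The 2 dimmer Hdac4 probe sets measured -0.61 and -0.32. Hdac4 on R6/2 arrays differed from WT by -0.06 and on Hdac4HET arrays by -0.56. No other one of the 18 histone deacetylase genes was called. The class IIa relatives Hdac5, Hdac7 and Hdac9 measured 0.01, -0.11 and -0.08, and Hdac2 of class I measured 0.25 with the groups apart (adjusted p = 2.32e-08). The mouse huntingtin gene, Htt, measured 0.13 (adjusted p = 0.00122), below the fold threshold.

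Within 10 Mb of Hdac4, 6 of 134 genes were higher and 5, Hdac4 included, were lower, which is 8.21% called, beside 6.28% of all genes in either direction. Armc9, Gin1 and Slco4c1 were among the higher genes, at 0.50, 0.43 and 0.50. Their calls ended with the mean over all probe sets of a gene, at -0.0750, 0.19 and 0.26. Capn10, a calpain protease, rose by 0.95 and 5033417F24Rik by 0.71, the other dimmer Capn10 probe set measured 0.11, 5033417F24Rik lost its call at 0.14 without _x_at and _s_at probe sets, and Nppc, Ecel1, Ngef and Neu2 were lower by 0.58 to 0.77 on the log2 scale. Pam, the enzyme that amidates neuropeptides, measured 9.51 to 9.81 in WT (median 9.71) and 10.25 to 10.55 in Dble::R6/2 (median 10.37). Its rise was 1.60-fold (log2 0.68 ± 0.0429 SE, adjusted p = 1.20e-15) with the groups apart. Pam on Hdac4HET arrays differed from WT by 0.48 and on R6/2 arrays by -0.05. Hdac4 and Pam were the only ones of these 11 genes that were also called between Dble::R6/2 and R6/2. Below the fold threshold, Stk25 differed from R6/2 by -0.25 (limma adjusted p = 1.29e-08). Stk25 differed from WT by -0.31 in both Dble::R6/2 and Hdac4HET and by -0.06 in R6/2. Ramp1 (0.24), Kif1a (-0.21) and Bok (0.29) also had an adjusted p under 0.05 against R6/2. The loss of the Hdac4 product and the DNA of the other strain around the null allele cannot be told apart here.

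**Figure D4:**
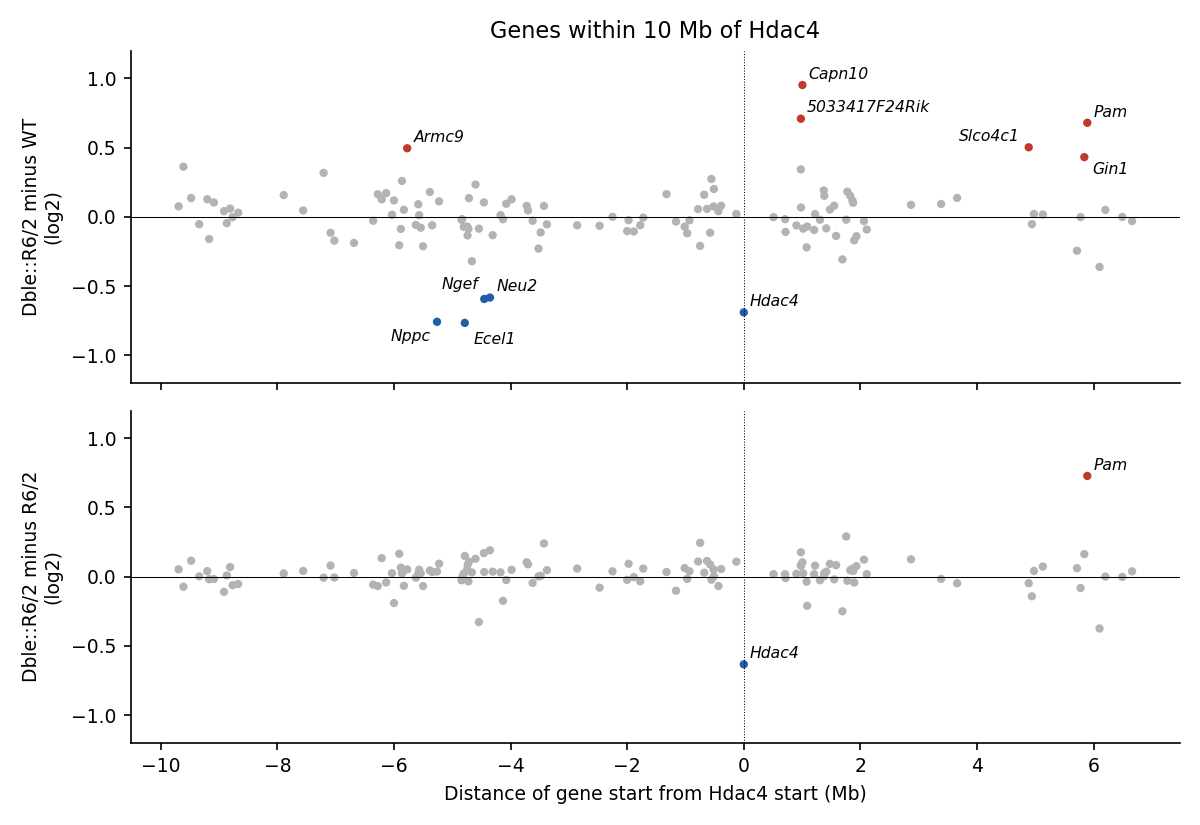
Each point is 1 of 134 genes within 10 Mb of Hdac4, with the distance of its start from that of Hdac4 (Mb) on the x axis and its change (log2) on the y axis, Dble::R6/2 minus WT above and Dble::R6/2 minus R6/2 below. Called genes are coloured and named, 11 of them above and 2, Hdac4 and Pam, below.

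To see how the Dble::R6/2 values are made up, they were set beside those of R6/2 and Hdac4HET against WT, which share the same 9 WT arrays. Over the 599 higher genes the median change was 0.46 in Dble::R6/2, 0.47 in R6/2 and 0.06 in Hdac4HET, and over the 544 lower genes it was -0.52, -0.54 and 0.02. Since the genes were chosen on the Dble::R6/2 contrast, these medians are a description. The change of Crh was -1.39 in Dble::R6/2 and -1.31 in R6/2, that of Egr2 -2.13 and -2.06, that of Rgs13 2.13 and 2.21, and that of Bdnf -0.57 and -0.54. The direct comparison of Dble::R6/2 with R6/2 called 16 genes (0.0879% of all), 4 of them higher and 12 lower.

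Of the genes called against WT, 1 higher (Pam) and 10 lower ones were also called against R6/2. Malat1, a nuclear noncoding RNA, was the brightest of them, at 12.78 to 13.53 in WT (median 13.31) and 11.81 to 12.65 in Dble::R6/2 (median 12.34). It fell 1.96-fold against WT (adjusted p = 2.28e-11), and against R6/2 the change was -0.41 (adjusted p = 0.0151), and its 6 other probe sets were all lower against WT. Zeb2 and Klf7, zinc finger factors of neuronal development, changed by -0.74 and -0.66 against WT, and by -0.52 and -0.43 against R6/2. B3galt1, Prox1, Gprin3 and Lrp1b were lower by 0.38 to 0.71 on the log2 scale against WT and by 0.42 to 0.61 against R6/2. With the mean over all probe sets of a gene, the calls against WT ended for Zeb2 (-0.31), Klf7 (-0.25), B3galt1 (-0.38), Prox1 (-0.33) and Lrp1b (-0.35). The Lrp1b call (-0.38) was also lost without any 1 of WT replicates 6, 7 and 9 or Dble::R6/2 replicates 4, 8 and 9, at -0.33 to -0.38. Abi3bp, an extracellular matrix protein, ran the other way between the 2 comparisons, with -1.04 against WT and 0.57 against R6/2, and it was higher in Hdac4HET than in WT by 0.81. The 16 calls against R6/2 became 5 without Dble::R6/2 replicate 9, 6 without replicate 4, 9 without replicate 10 and 10 without replicate 8. The same 4 arrays were the lowest of their group for Malat1, at 11.81 (replicate 9), 12.02 (4), 12.11 (10) and 12.18 (8). They were also lowest for the mean of the less bright probe sets described at the end, at 6.86, 6.98, 6.96 and 7.06, and the part of that pattern in these calls was not tested.

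The sum of the R6/2 and Hdac4HET changes was tested against the Dble::R6/2 change with an interaction term, which called 34 genes (0.187%). Only 3 of these were called in Dble::R6/2 against WT, namely Mme (0.44), Gprin3 (-0.63) and Pdyn (-0.97). Mme, the peptidase neprilysin, was above WT in R6/2 by 0.66 and in Hdac4HET by 0.44, and the Mme call against WT ended with the mean over its probe sets (0.22). The count of 34 dropped to 0 when the 7 arrays high in olfactory bulb markers were left out, and to 1 without the 6 arrays whose sex-linked genes went against the label. The first setting took out 6 of the 9 Hdac4HET arrays, and the second took out Hdac4HET replicates 1, 5 and 9. Fewer arrays alone can end calls, so the part of bulb tissue or of the labels was not tested. Leaving out 1 array at a time gave 16 (without WT replicate 3) to 78 calls (without WT replicate 7).

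No gene was called in the interaction of Dble::R6/2 and sex, where the smallest adjusted p in limma was 0.9998 and 1328 of 45037 probe sets had an unadjusted p under 0.05. By labelled sex, the median change over the higher genes was 0.48 in males and 0.46 in females, and over the lower genes -0.56 and -0.52. Scn4b changed by -1.80 in males and -1.35 in females, and Egr2 by -2.45 and -1.77. Without the 6 arrays that did not match their label, WT replicate 9 and Dble::R6/2 replicates 1 and 9 among them, the medians were 0.47 and 0.47 over the higher and -0.55 and -0.51 over the lower genes. Scn4b then changed by -1.83 in males and -1.37 in females and Egr2 by -2.61 and -2.10, and again no gene was called in the interaction.

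Lower probe sets were often not the brightest of their gene. Of 1418 lower probe sets with 1 gene symbol, 874 (61.6%) were not the brightest, compared with 42.5% of the higher ones, 47.9% of all such probe sets and 47.6% of the lower ones in R6/2 against WT. A less bright probe set was lower in 693 genes, and the brightest was also lower in 154 of them, not called in 535 and higher in 4. In the 535 genes the median level was 7.30 for the lower probe set and 9.96 for the brightest, and the median change -0.48 and -0.07.

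The 535 less bright probe sets were then followed over the arrays, as a description, since they were chosen on this contrast. Their mean level was 7.31 to 7.82 on the WT arrays (median 7.73) and 6.86 to 7.33 on the Dble::R6/2 arrays (median 7.17), and on R6/2 arrays it was 7.22 to 7.55 (median 7.31). WT replicate 8 was lowest of its group and the only WT array within the Dble::R6/2 range. The brightest probe sets of the same genes spanned 9.87 to 9.92 and 9.80 to 9.84. Median change of the less bright probe sets was -0.31 in R6/2 against WT and -0.20 in Dble::R6/2 against R6/2. Golm2 gave -0.77 on its dimmer and 0.15 on its brightest probe set, Nedd4 -0.74 and 0.09, Secisbp2l -0.73 and -0.02, and Rph3a -1.35 and -0.48. The study compared Golm2 (there Casc4) and Secisbp2l (there Secis) by qPCR between R6/2 and Dble::R6/2, not against WT. It reported small differences for both, opposite in direction to those its arrays had predicted. RNA quality was not measured in the values used here, and its part in this pattern was not tested.

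**Figure D5:**
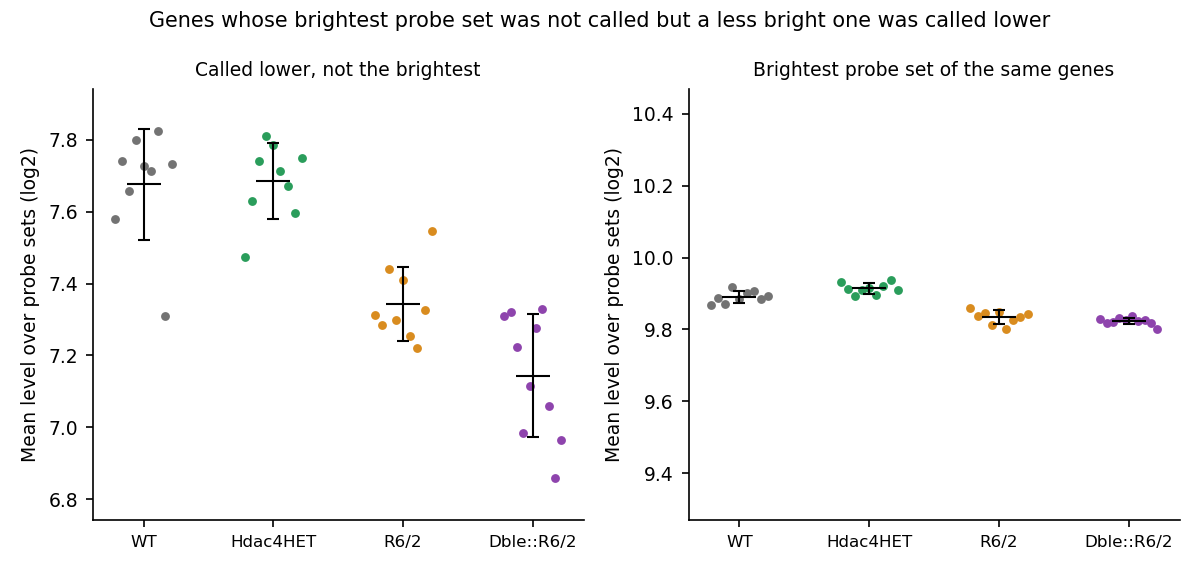
Mean level (log2) over 535 lower, less bright probe sets (left) and over the brightest probe sets of the same genes (right), 1 point per array by genotype, with the mean and SD as black bars and y axes of equal span. The Dble::R6/2 arrays lie at 6.86 to 7.33 on the left, below the WT arrays other than replicate 8, and at 9.80 to 9.84 on the right.

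Protamine probe sets stood out at the dim end. The 2 dimmest Prm1 probe sets measured 2.72 to 3.05 and 2.68 to 3.07 in WT, and 4.47 to 4.93 and 4.33 to 4.78 in Dble::R6/2, changes of 1.79 and 1.64. They also differed from R6/2, by 1.83 and 1.62, and Hdac4HET arrays were above WT by 1.55 and 1.41. WT levels here lay under the fifth percentile of all probe set levels (3.22), and the brightest Prm1 probe set measured 0.07 and was not called. This gene was singled out after its values were seen.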

How the data were processed

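Cortex RNA of 37 mice was hybridised to Affymetrix mouse expression arrays, 1 array per mouse. The values deposited by the authors were log2 expression levels of 45037 probe sets, already normalized; how scans became log2 levels was not given in the sources used here. Some arrays were left out of the study on quality but are not named, so all 37 were used. The platform annotation gave 1 gene symbol for 34945 probe sets, several for 932 and none for 9160, and no gene was named from the latter 2 kinds.

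All 4 genotypes were fitted together with limma 3.58.1 (lmFit and eBayes with trend) in R 4.3.3. A change was called at a Benjamini-Hochberg adjusted p under 0.05 over all probe sets and above 1.3-fold. Named were the 20 largest rises and falls, up to 4 called members of each list (where none was called, the 2 of lowest p), class IIa deacetylases, Htt, Bdnf and the genes of the study's PCR assays, called genes within 10 Mb of Hdac4, and genes called in an interaction or also against R6/2. Further members of a list, and the genes of the probe set comparison, were named after their values were seen. The 36 lists held 852 genes, of which 780 were measured. Members and lists were chosen with earlier results of these data known. Promoters were RefSeq sequences (GRCm38.p6). Scripts were tested on simulated data, and figures were drawn with Python 3.11.15 and matplotlib 3.10.9. The alternatives were the methods' t-test, a replicate block, array weights, other normalization and thresholds, other probe set choices, and arrays left out.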

Additional observations from a re-analysis of the deposited data

Results flagged for a closer look

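In 19 of 336 groups of arrays of a named gene, 1 array stood far from the rest, beyond Dixon's limit, which chance alone passes in about 1 of 20 groups. WT replicate 8 held 7 of them. It was the lowest WT array for Grm3 (10.97, next 11.18), Dlgap2 (8.29, next 8.69), Cplx2 (12.72, next 12.94), Mef2c (12.25, next 12.71), Zc3h15 (10.31, next 10.66) and Prox1 (5.09, next 5.72), and the highest for Sdha (11.98, next 11.88). Of the other WT arrays, replicate 6 was low for Ptpn20 (4.13), replicate 7 low for Cacng3 (9.41) and replicate 3 high for Htr1a (7.57). Dble::R6/2 replicate 4 was high for Grm2 (8.49) and Pmaip1 (6.73) and low for Phf1 (8.32). Dble::R6/2 replicate 5 was high for Gpr6 (7.64), Rgs9 (8.62) and 5033417F24Rik (6.12). Dble::R6/2 replicate 10 was low for Ddit4l (7.41) and high for Ecel1 (7.01), and replicate 7 was low for Pdyn (5.70).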

How the results depend on the processing

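The 3009 changed probe sets, 599 higher and 544 lower genes stayed within 1.5 times under the alternatives other than those given next. Without a fold threshold they were 17930 probe sets (10173 higher, 7757 lower) and 5646 higher and 2667 lower genes, with 357 genes against R6/2 and 190 in the interaction of R6/2 and Hdac4HET, since fewer conditions had to be met. With lower calls made only below 0.7 of the WT level, 886 probe sets and 282 genes were lower and 7 genes differed from R6/2. With the mean over all probe sets of a gene, 375 genes were higher, 9 differed from R6/2, and Armc9 reversed to -0.0750. The 16 genes called against R6/2 became 5 with the methods' t-test, 5 without the arrays with raised bulb markers and 6 without the arrays against their labelled sex. The 34 interaction calls became 92 with array weights, 0 without the bulb-raised arrays and 1 without the arrays against their labelled sex. The cause of these shifts was not tested. Same-numbered WT and Dble::R6/2 arrays correlated between -0.27 and 0.14 in their deviations, and 1 of 9 matched its own number best. The labels do not say what a shared number means, and whether such arrays share a litter or batch was not tested. With the replicate number as a block, 2874 probe sets (1123 higher, 1751 lower) and 574 higher and 529 lower genes were called, 4 against R6/2, 27 in the interaction and 0 in that with sex. Leaving out 1 array in turn gave 2841 to 3347 probe sets (1113 to 1281 higher, 1712 to 2066 lower), 569 to 670 higher and 531 to 561 lower genes, 5 to 21 against R6/2, 16 to 78 in the interaction and 0 to 0 in that with sex. Besides those named in the report, the interaction count moved by over 1.5 times without WT replicates 1 (21) and 5 (18) and Dble::R6/2 replicates 3 (20), 4 (21), 6 (68), 8 (22) and 9 (20). Of 168 named genes 144 could be run under all 13 settings and with each of 19 arrays left out, and 90 of these kept their side of both thresholds throughout, as did 81 of the 113 called among them. The other 24, 19 of them called, lost their probe set in at least 1 setting. With the mean over probe sets 21 named calls were lost, and with the 0.7 limit 16. Of 72 counts of list members, 18 stayed within 1.5 times throughout. All 20 counts of 3 or more did so with each array left out, and 11 of them under every setting that kept the fold threshold, while 16 moved without it and 8 with the 0.7 limit. The number of arrays limits the precision, and levels near the dim end of the array are the least certain.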

Other observations

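Y-linked genes differed in level among the arrays that carried a Y chromosome by their own signal. The mean over the Y-linked genes was 7.32 to 7.71 on 6 WT arrays and 7.82 to 8.01 on 5 Dble::R6/2 arrays, and it was 7.46 to 7.60 on 3 Hdac4HET and 7.88 to 8.08 on 5 R6/2 arrays. Eif2s3y, a translation initiation factor subunit, spanned 8.91 to 9.44 in WT and 9.69 to 9.78 in Dble::R6/2, and the histone demethylase Kdm5d 7.47 to 7.66 and 7.88 to 8.15, with no overlap in either. Uty overlapped, at 5.40 to 6.07 and 5.77 to 6.21. These arrays were picked by their Y-linked signal, so the values are given without a test.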
